A study of Mus musculus with 14 samples.

Results

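The sarcomere is the contractile unit of heart muscle. Thin filaments of actin are anchored at the Z-disc, thick filaments of myosin are held together at the M-band, and the giant protein titin spans from one to the other and acts as a molecular spring. The Z-disc joins the thin filaments of neighboring sarcomeres through alpha-actinin and carries many PDZ and LIM domain proteins that link actin to titin, desmin and signaling enzymes. The genes described here are 46 genes that encode titin, M-band and C-zone proteins, the thin filament, the Z-disc with its PDZ, LIM and actin-linked proteins, and 2 factors that help to fold or assemble myosin. They were taken by gene symbol out of 47642 annotated genes, and myosin chains were not among them.

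RNA was measured in left ventricles of 40-day-old male mice in 2 groups of 7 mice. Male UtyGT mice carried a gene trap in intron 4 of Uty, a chromosome Y gene, which adds a splice acceptor and a coding sequence with a stop codon; it came from embryonic stem cells of 129P2/OlaHsd origin. Wild-type (WT) males carried the chromosome Y of 129P2/OlaHsd without the trap, and both groups had been backcrossed for more than 10 generations to C57BL/6J. The trap was carried in the germ line, so that every cell type of the ventricle had it, and the UtyGT mice all descend from 1 trapped line. Each library was a QuantSeq 3′ FWD library, in which a transcript gives about 1 read at its 3′ end whatever its length, so that levels in CPM (counts scaled to the same number of reads in every library) can be set side by side between genes without scaling by length. Reads assigned to genes totalled 6357485 to 10268706 per UtyGT library and 6322161 to 9397378 per WT library. Uty itself had 1 to 6 counts in UtyGT libraries and 47 to 75 counts in WT libraries, so no library departed from its label. Libraries are numbered as in the count table.

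All levels below are TMM-scaled CPM, with mean ± SD of n = 7 libraries for each genotype. Changes are log2 ratios of UtyGT over WT with their SE. Called genes are those with an edgeR adjusted p below 0.05, adjusted over all 11563 tested genes. Of the 46 genes, 45 had enough reads to be tested. Of these, 6 rose in UtyGT ventricles (13.3%, against 4.70% of all tested genes called higher) and 0 fell (against 3.34% of all tested genes called lower). The 46 genes were chosen with earlier results of these data known, so these shares are descriptive. At an unadjusted p below 0.05 there were 13 members, 9 higher and 4 lower (28.9%, close to the 24.8% of all tested genes). DESeq2 called 7 members higher and 2 lower, beside 6.00% of all genes called higher and 5.59% lower. The 6 that rose were Ablim1, Unc45b, Nexn, Nebl, Lmod2 and Pdlim5, by 0.44 to 0.65 on the log2 scale. The median log2 fold change of the tested members was -0.0081, beside 0.0094 over all tested genes, with 22 members above 0 and 23 below it. Only Ablim1 and Unc45b had UtyGT and WT libraries that did not overlap (4.44% of tested members, against 2.14% of all tested genes in either direction).

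Start regions of 3 genes with a single RefSeq start are shown because they set 2 genes that rose, Lmod2 and Unc45b, beside Actc1, the most abundant gene and not called. RefSeq promoters (GRCm38.p6, 250 bases before to 50 after the annotated start) were matched by symbol for 40 of the 46 genes, with 58 promoters in all. Of these promoters, 19.0% held TATAAA (13.6% of all 32851 promoters), 22.4% held CATTCC, the MCAT core (14.7%), 13.8% held a CArG box (1.63%) and 13.8% held a MEF2 site (3.19%), on either strand. The CArG box is bound by serum response factor and the MEF2 site by MEF2 proteins, both regulators of muscle genes. In Actc1 (chr2:114052826-114053125, minus strand) the CArG box lies 47 to 38 bases before the annotated start and TATAAA 34 to 39 bases after it, and no letters of the 4 motifs occur in the windows of Lmod2 (chr6:24597521-24597820, plus strand) and Unc45b (chr11:82911003-82911302, plus strand). Other genes that rose held motifs in a promoter, namely Nebl (CArG box and CATTCC), Ablim1 (TATAAA and CATTCC) and Pdlim5 (TATAAA). The 3 windows thus do not stand for called and uncalled genes as groups, and a link of motifs to the changes was not tested. The windows of Unc45b and Actc1 lie inside the annotated spans of these genes. They need not hold the start used in the ventricle. Capitals mark a motif.
Lmod2: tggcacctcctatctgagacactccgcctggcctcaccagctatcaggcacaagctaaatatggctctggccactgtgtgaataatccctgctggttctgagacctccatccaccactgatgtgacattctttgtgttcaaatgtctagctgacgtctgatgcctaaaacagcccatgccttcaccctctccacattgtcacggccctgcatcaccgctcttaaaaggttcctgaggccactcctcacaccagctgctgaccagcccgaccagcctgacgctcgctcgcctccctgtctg
Unc45b: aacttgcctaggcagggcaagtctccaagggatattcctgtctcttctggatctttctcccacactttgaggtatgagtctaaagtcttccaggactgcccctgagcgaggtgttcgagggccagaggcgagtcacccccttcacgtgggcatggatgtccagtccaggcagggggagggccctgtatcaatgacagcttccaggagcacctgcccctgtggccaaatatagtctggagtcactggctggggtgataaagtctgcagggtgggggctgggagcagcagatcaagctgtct
Actc1: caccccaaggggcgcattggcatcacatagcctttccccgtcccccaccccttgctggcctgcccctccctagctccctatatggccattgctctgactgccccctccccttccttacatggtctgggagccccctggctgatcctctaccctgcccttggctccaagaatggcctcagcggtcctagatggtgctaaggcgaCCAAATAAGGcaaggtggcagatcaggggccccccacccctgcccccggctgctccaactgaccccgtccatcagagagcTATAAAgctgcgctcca

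**Figure D1:**
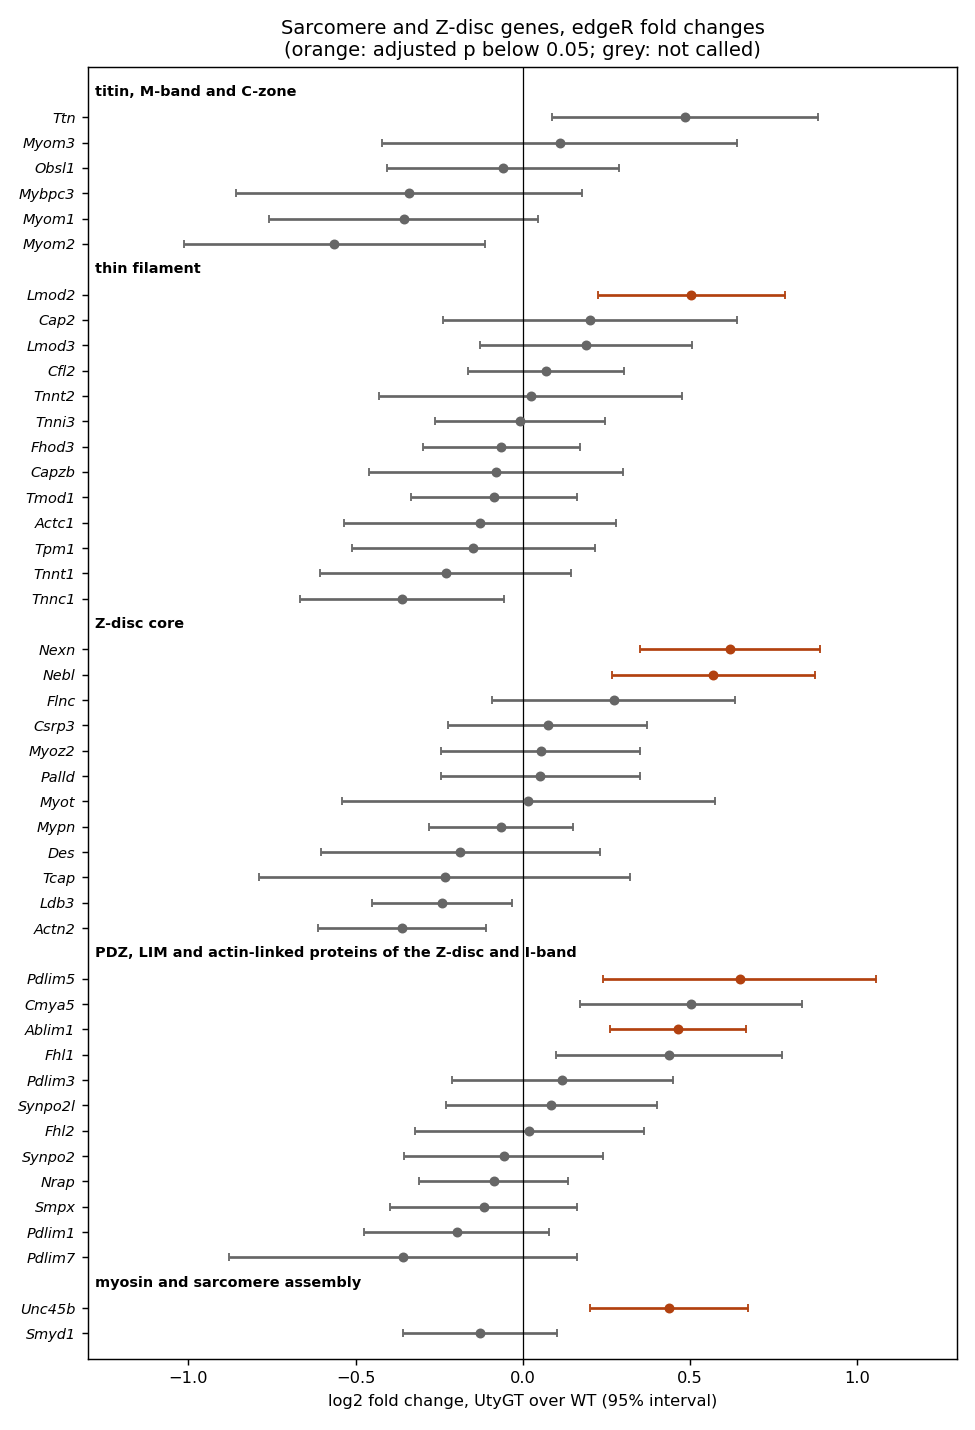
Each point is the edgeR log2 fold change of UtyGT over WT for 1 tested gene, with its 95% interval on the horizontal axis and genes grouped by place in the sarcomere down the page. The 6 called genes, in orange, lie between 0.44 and 0.65, and the other 39, in grey, lie on both sides of 0.

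Ablim1 encodes an actin-binding LIM protein (ENSMUSG00000025085, GRCm38 chromosome 19, 57032733 to 57314919). Its lowest, median and highest levels were 379.6, 486 and 531 CPM in UtyGT libraries, and 318, 352 and 367 CPM in WT libraries. All 7 UtyGT libraries lay above every WT library. The mean was 476 ± 49.4 CPM in UtyGT and 345 ± 17.9 CPM in WT (log2 fold change 0.47 ± 0.10, edgeR adjusted p = 0.0100). Ablim1 was called in all 23 alternatives to the main fit, with adjusted p of 1.1e-05 to 0.0338.

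Unc45b encodes a chaperone that helps to fold myosin heads in striated muscle (ENSMUSG00000018845, chromosome 11, 82910550 to 82943403). Levels of Unc45b ran from a lowest of 249.99 over a median of 273 to a highest of 337 CPM in UtyGT libraries, and from 177 over 214 to 237 CPM in WT libraries. UtyGT 6 and UtyGT 7 were the highest and WT 6 and WT 7 the lowest, with no overlap between genotypes. The mean was 287 ± 39.7 CPM in UtyGT and 212 ± 23.7 CPM in WT (log2 fold change 0.44 ± 0.11, edgeR adjusted p = 0.0276). The other gene of the myosin assembly pair, Smyd1, encodes a muscle methyltransferase that works with myosin chaperones and was not called (229 ± 28.8 CPM in UtyGT, 249.99 ± 30.5 CPM in WT, adjusted p = 0.501).

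Nexn encodes nexilin, an actin-binding protein of the Z-disc (ENSMUSG00000039103, chromosome 3, 152236982 to 152266350). Its lowest, median and highest levels were 1180.2, 1396 and 1804 CPM in UtyGT libraries, and 779, 930.3 and 1187 CPM in WT libraries. Of the 7 UtyGT libraries 6 lay above every WT library, and UtyGT 2 was just below WT 1. Nexn was the most abundant of the genes that rose, with 1460 ± 231 CPM in UtyGT and 949 ± 140 CPM in WT (log2 fold change 0.62 ± 0.13, edgeR adjusted p = 0.0095). The call held without each single library but not after correction for GC content of whole transcripts (adjusted p = 0.0800) or of 3′ ends (adjusted p = 0.0671).

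Nebl encodes nebulette, the cardiac relative of nebulin that binds actin near the Z-disc (ENSMUSG00000053702, chromosome 2, 17343909 to 17731464). UtyGT libraries had a lowest level of 155 CPM, a median of 245 CPM and a highest of 260.1 CPM, and WT libraries had 102, 149 and 180 CPM. Only UtyGT 5 fell within the range of WT. The mean was 223 ± 40.8 CPM in UtyGT and 150.1 ± 26.9 CPM in WT (log2 fold change 0.57 ± 0.14, edgeR adjusted p = 0.0258). It was not called after the GC correction (adjusted p = 0.0518), or without UtyGT 1, UtyGT 3, UtyGT 7, WT 3, WT 4 or WT 5 (adjusted p = 0.0521 to 0.0605).

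Lmod2 encodes leiomodin 2, which promotes the growth of thin filaments at their pointed ends (ENSMUSG00000029683, chromosome 6, 24597762 to 24605414). Its lowest, median and highest levels were 273, 386 and 431 CPM in UtyGT libraries, and 218, 237 and 323 CPM in WT libraries. UtyGT 1, UtyGT 2, UtyGT 3 and UtyGT 4 lay above every WT library, and the other 3 overlapped WT. The mean was 359 ± 65.4 CPM in UtyGT and 253 ± 37.7 CPM in WT (log2 fold change 0.50 ± 0.13, edgeR adjusted p = 0.0296). It was not called after the 3′ GC correction (adjusted p = 0.0536), or without UtyGT 1, UtyGT 2, UtyGT 3, UtyGT 4, WT 3, WT 4 or WT 5 (adjusted p = 0.0502 to 0.0649).

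Pdlim5 encodes a PDZ and LIM protein that binds alpha-actinin and protein kinase C (ENSMUSG00000028273, chromosome 3, 142239590 to 142395696). In UtyGT libraries the lowest, median and highest levels were 355, 524 and 737 CPM, and in WT libraries 253, 306 and 479 CPM. Of the UtyGT libraries 4 lay above every WT library, and WT 6 and WT 7 stood above the other 5 WT libraries. The mean was 526 ± 153 CPM in UtyGT and 335 ± 91.5 CPM in WT (log2 fold change 0.65 ± 0.19, edgeR adjusted p = 0.0475). This call was the least stable of the 6, being made in 8 of 23 alternatives. It was lost with RLE scaling (adjusted p = 0.0537), without the most abundant genes in the totals (0.0526), without a count filter (0.0615), after the GC correction (0.0873), after the 3′ GC correction (0.0702), without WT 4 and UtyGT 6 (0.0710), and without any one of UtyGT 1, UtyGT 2, UtyGT 3, UtyGT 7 and WT 1 to WT 5 (adjusted p = 0.0691 to 0.116). Unc45b was likewise not called without a count filter (0.0621), after the 3′ GC correction (0.0892), or without UtyGT 3, UtyGT 7, WT 3 or WT 5 (adjusted p = 0.0513 to 0.0652).

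**Figure D2:**
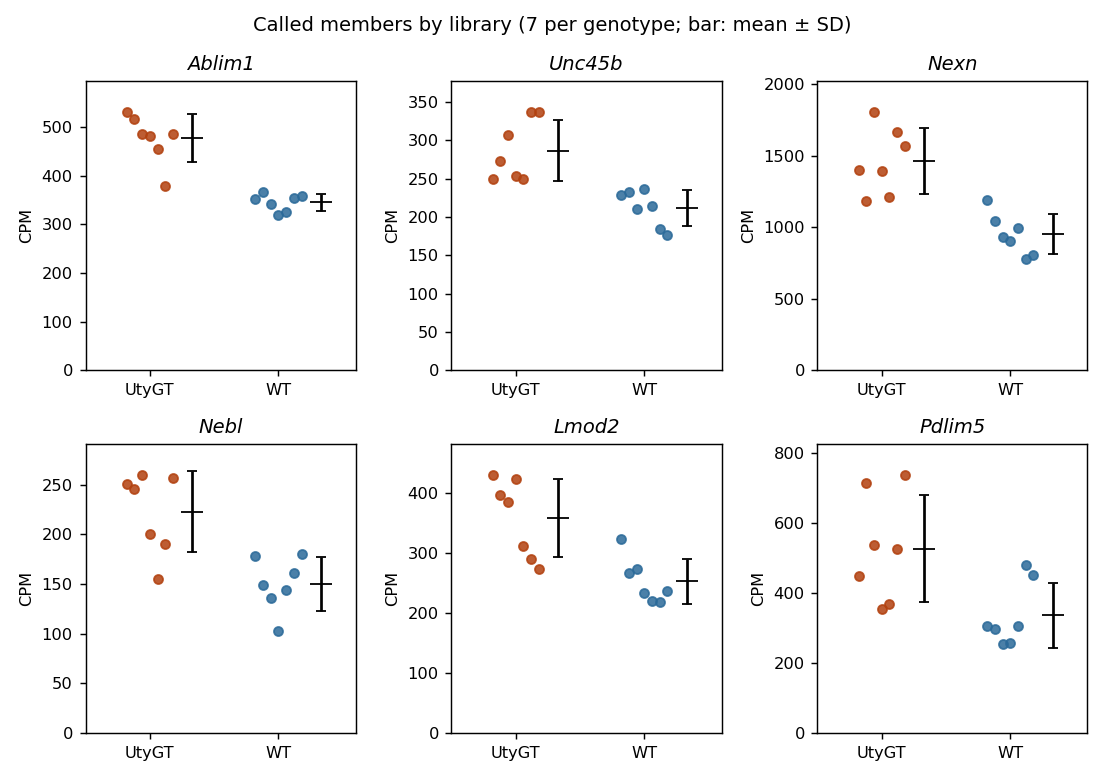
Each point is the level in CPM of 1 library, with the 7 UtyGT libraries left of the 7 WT libraries and a bar for mean ± SD. All 7 UtyGT points lie above every WT point for Ablim1 and Unc45b, and points of the genotypes overlap for the other 4 genes.

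Titin, M-band and C-zone genes gave no call among 6 tested genes, and 2 had an unadjusted p below 0.05, in opposite directions. Ttn, which encodes titin, had lowest, median and highest levels of 3366, 4613 and 6574 CPM in UtyGT libraries, and 2208, 3412 and 4852 CPM in WT libraries. UtyGT 1 and UtyGT 6 lay above every WT library, and WT 5, WT 6 and WT 7 lay below every UtyGT library. The mean was 4850.3 ± 1230.4 CPM in UtyGT and 3466 ± 930.3 CPM in WT (log2 fold change 0.48 ± 0.19, edgeR adjusted p = 0.121), and Ttn was called only with surrogate variables (adjusted p = 0.0071). Myom2, which encodes a myomesin that cross-links thick filaments at the M-band, had 456 ± 146 CPM in UtyGT and 674 ± 193 CPM in WT (log2 fold change -0.56 ± 0.21, edgeR adjusted p = 0.112). Its UtyGT libraries spanned 267 to 641 CPM and its WT libraries 432 to 961 CPM, and no alternative called it. Its relative Myom1 had 767 ± 200 CPM in UtyGT and 982 ± 279 CPM in WT (adjusted p = 0.259). Mybpc3, the cardiac myosin-binding protein C of the C-zone, had 3297 ± 1180.4 CPM in UtyGT and 4172 ± 1535 CPM in WT (adjusted p = 0.411). Obsl1, a relative of obscurin, was low at 14.2 ± 2.32 CPM in UtyGT and 14.7 ± 3.65 CPM in WT (adjusted p = 0.860). Myom3 was below 5 CPM in both genotypes.

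The thin filament held the most abundant of the genes. Actc1 (cardiac alpha-actin), Tpm1 (tropomyosin), Tnnt2 (cardiac troponin T) and Tnni3 (cardiac troponin I) together made up 57.2% of the summed level of the 46 genes in UtyGT and 58.6% in WT, as shares of the mean CPM. None of these 4 was called. Actc1 had lowest, median and highest levels of 10313, 11574 and 24940 CPM in UtyGT libraries, and 11764, 14922 and 21264 CPM in WT libraries. A single UtyGT library, UtyGT 6, was above every WT library, whereas 4 UtyGT libraries were below every one. The log2 fold change of Actc1 was -0.13 ± 0.19 (edgeR adjusted p = 0.721). Tpm1 had 10914 ± 2692 CPM in UtyGT and 12090.3 ± 2787 CPM in WT (adjusted p = 0.638). Tnnt2 had 9535 ± 3721 CPM in UtyGT and 9383 ± 2380.5 CPM in WT (adjusted p = 0.962). Tnni3 varied least of the 4, with 5117 ± 583 CPM in UtyGT and 5146 ± 726 CPM in WT (log2 fold change -0.0081 ± 0.12, 95% interval -0.26 to 0.25, adjusted p = 0.977).

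Tnnc1, which encodes the calcium-binding troponin C, was the only thin filament gene besides Lmod2 with an unadjusted p below 0.05. It had 1286 ± 194 CPM in UtyGT and 1652 ± 360.2 CPM in WT (log2 fold change -0.36 ± 0.15, edgeR adjusted p = 0.132). In 4 UtyGT libraries it was below every WT library, and in the other 3 it overlapped them. It was called lower with surrogate variables (adjusted p = 0.0258) and without UtyGT 6 (adjusted p = 0.0400). Of the genes that act on filament ends, Tmod1, the pointed-end cap, had 324 ± 48.9 CPM in UtyGT and 344 ± 44.7 CPM in WT (adjusted p = 0.690). Lmod3, another leiomodin, had 143 ± 33.1 CPM in UtyGT and 125 ± 23.3 CPM in WT (adjusted p = 0.460) and was called higher only with surrogate variables. Capzb, a subunit of the barbed-end cap, had 363 ± 80.4 CPM in UtyGT and 384 ± 99.7 CPM in WT (adjusted p = 0.823). Lmod2 was thus the only called gene among those acting on filament ends.

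The genes that turn over or assemble actin filaments were also not called. Cfl2, muscle cofilin, had 204 ± 27.4 CPM in UtyGT and 195 ± 21.2 CPM in WT (adjusted p = 0.741). Cap2, which works with cofilin, had 62.9 ± 19.6 CPM in UtyGT and 54.7 ± 16.6 CPM in WT (adjusted p = 0.589). Fhod3, a cardiac formin that nucleates actin, had 169.9 ± 15.3 CPM in UtyGT and 178 ± 27.2 CPM in WT (adjusted p = 0.766).

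Neonatal or skeletal isoforms were compared with their adult cardiac partners as a share of summed counts, which does not depend on library scaling. Tnni1, the slow skeletal troponin I of the fetal and neonatal heart, had 0 to 5 counts per library, 24 in all. It was at 0 in 1 UtyGT and 2 WT libraries; a count of 0 allows up to 3 counts, or a share of up to 0.0087% in UtyGT 2, 0.0072% in WT 3 and 0.0110% in WT 7. As a share of Tnni1 and Tnni3, it averaged 0.00455% ± 0.00379 in UtyGT and 0.00358% ± 0.00313 in WT (exact two-sided permutation test, p = 0.616, adjusted over 3 shares 0.924). Tnnt1, slow skeletal troponin T, was 0.282% ± 0.0877 of Tnnt1 and Tnnt2 in UtyGT and 0.322% ± 0.0699 in WT (exact permutation p = 0.358, adjusted 0.924), with 25.2 ± 5.72 CPM in UtyGT and 29.6 ± 7.45 CPM in WT. Acta1, skeletal alpha-actin, was 4.47% ± 1.11 of Acta1 and Actc1 in UtyGT and 4.52% ± 1.95 in WT (exact permutation p = 0.964, adjusted 0.964). None of the 3 shares differed by more than the spread between libraries, and the smallest p that the 3432 assignments allow is 0.000583.

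In the Z-disc core, Nexn and Nebl rose, and 10 of 12 genes were not called. Actn2, the sarcomeric alpha-actinin that cross-links actin at the Z-disc, had lowest, median and highest levels of 371, 435 and 464 CPM in UtyGT libraries, and 454, 515 and 679 CPM in WT libraries. Of the UtyGT libraries 5 lay below every WT library. The mean was 428 ± 31.7 CPM in UtyGT and 549.7 ± 100.3 CPM in WT (log2 fold change -0.36 ± 0.12, edgeR adjusted p = 0.0717). Actn2 was called lower by DESeq2 (adjusted p = 0.0210), with surrogate variables (0.0158), and without UtyGT 6 (0.0350), WT 1 (0.0470) or WT 7 (0.0451). Its value was smaller after the GC correction (log2 fold change -0.21, adjusted p = 0.266) and the 3′ GC correction (-0.14, adjusted p = 0.469). Ldb3, which encodes a PDZ and LIM protein that binds alpha-actinin, had 944 ± 61.7 CPM in UtyGT and 1116 ± 117 CPM in WT (log2 fold change -0.24 ± 0.10, edgeR adjusted p = 0.141). It was below every WT library in 5 UtyGT libraries, and was called lower by DESeq2 (0.0416), with surrogate variables (0.0163) and after the 3′ GC correction (0.0262).

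None of the remaining Z-disc core genes was called. Tcap, the telethonin that ties titin ends together at the Z-disc, had 2009 ± 1107.8 CPM in UtyGT and 2363 ± 596 CPM in WT (adjusted p = 0.622), with its UtyGT libraries spread from 1130.2 to 4350.0 CPM. Csrp3, the muscle LIM protein, had 1526 ± 241 CPM in UtyGT and 1449 ± 272 CPM in WT (adjusted p = 0.785). Myoz2, a calcineurin-binding calsarcin, had 1483 ± 332 CPM in UtyGT and 1430 ± 78.6 CPM in WT (adjusted p = 0.852). Its WT libraries spanned 1324.6 to 1521.5 CPM, with 5 UtyGT libraries above every WT library and 2 below every one. Des, the intermediate filament protein desmin, had 1877 ± 603 CPM in UtyGT and 2137 ± 521 CPM in WT (adjusted p = 0.598). Flnc, filamin C, had 99.97 ± 29.9 CPM in UtyGT and 82.8 ± 15.03 CPM in WT (adjusted p = 0.345). The actin-binding immunoglobulin-domain proteins were, like Flnc, far below Tcap, Csrp3, Myoz2 and Des in level. Mypn (myopalladin) had 84.0 ± 10.9 CPM in UtyGT and 87.9 ± 5.68 CPM in WT (adjusted p = 0.731), Palld (palladin) 94.2 ± 15.6 CPM in UtyGT and 90.9 ± 18.8 CPM in WT (adjusted p = 0.854), and Myot (myotilin) 13.9 ± 6.24 CPM in UtyGT and 13.7 ± 3.89 CPM in WT (adjusted p = 0.980).

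Among PDZ, LIM and actin-linked proteins of the Z-disc and I-band, Ablim1 and Pdlim5 rose, and 10 of 12 genes were not called. Cmya5, which encodes the large desmin- and dystrobrevin-binding protein myospryn, came closest to the threshold. Its lowest, median and highest levels were 422, 609 and 751 CPM in UtyGT libraries, and 285, 399 and 548 CPM in WT libraries. The mean was 596 ± 120.4 CPM in UtyGT and 421 ± 90.3 CPM in WT (log2 fold change 0.50 ± 0.16, edgeR adjusted p = 0.0586). It was called higher by DESeq2 (0.0336), with surrogate variables (0.0023), without WT 4 and UtyGT 6 (0.0401), and without UtyGT 5 (0.0363), UtyGT 6 (0.0275) or WT 7 (0.0314). Fhl1, a protein made of LIM domains and encoded on chromosome X, had 108 ± 18.9 CPM in UtyGT and 79.4 ± 19.6 CPM in WT (log2 fold change 0.44 ± 0.16, edgeR adjusted p = 0.103). It was above every WT library in 5 UtyGT libraries, and was called higher with surrogate variables (0.0051), without UtyGT 6 (0.0307) and without WT 4 and UtyGT 6 (0.0375). Its paralog Fhl2 was far more abundant and had 1723 ± 387 CPM in UtyGT and 1700.2 ± 384 CPM in WT (adjusted p = 0.959).

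The other Pdlim genes were not called. Pdlim1 had 100.4 ± 18.9 CPM in UtyGT and 115 ± 16.5 CPM in WT (adjusted p = 0.365), Pdlim3 had 13.0 ± 3.05 CPM in UtyGT and 12.1 ± 1.61 CPM in WT (adjusted p = 0.684), and Pdlim7 had 34.3 ± 16.7 CPM in UtyGT and 44.1 ± 12.9 CPM in WT (adjusted p = 0.386). Pdlim7 was called lower without UtyGT 6, its highest library. Smpx, a small protein linked to the cytoskeleton, had 2346 ± 426 CPM in UtyGT and 2545 ± 376 CPM in WT (adjusted p = 0.625). Nrap, a nebulin-related anchoring protein of nascent myofibrils, had 270.6 ± 26.0 CPM in UtyGT and 287 ± 35.2 CPM in WT (adjusted p = 0.649). Synpo2 had 100.2 ± 16.1 CPM in UtyGT and 104 ± 21.2 CPM in WT (adjusted p = 0.842), and Synpo2l had 144 ± 25.1 CPM in UtyGT and 136 ± 32.1 CPM in WT (adjusted p = 0.767), both of them actin-binding proteins of the synaptopodin family.

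Libraries of a genotype differed from each other for abundant and for low members. The summed level of the 46 genes was 57377 to 101605 CPM in UtyGT libraries and 54826 to 87223 CPM in WT libraries, with UtyGT 6 the highest of all 14. UtyGT 6 was the highest UtyGT library for 21 of 45 tested members and the lowest for 11, so that it stood apart in both directions. It had 24940 CPM of Actc1, beside a median of 11305 CPM in the other UtyGT libraries, and 4350.0 CPM of Tcap, beside 1560.3 CPM. It was low for Capzb, with 198 CPM beside 383 CPM, and for Myoz2, with 865 CPM beside 1628 CPM. WT 4 was the highest WT library for 16 members, and WT 6 and WT 7 were each the lowest for 14. Without UtyGT 6, 8 members were called higher and 4 lower, where Actn2, Tnnc1, Pdlim7 and Tcap fell, and 7.87% of all tested genes were called higher and 11.4% lower. Without WT 4 and UtyGT 6 together, 7 of 45 members were called higher and 1 lower, beside 6.88% of all tested genes called higher and 7.21% lower.

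**Figure D3:**
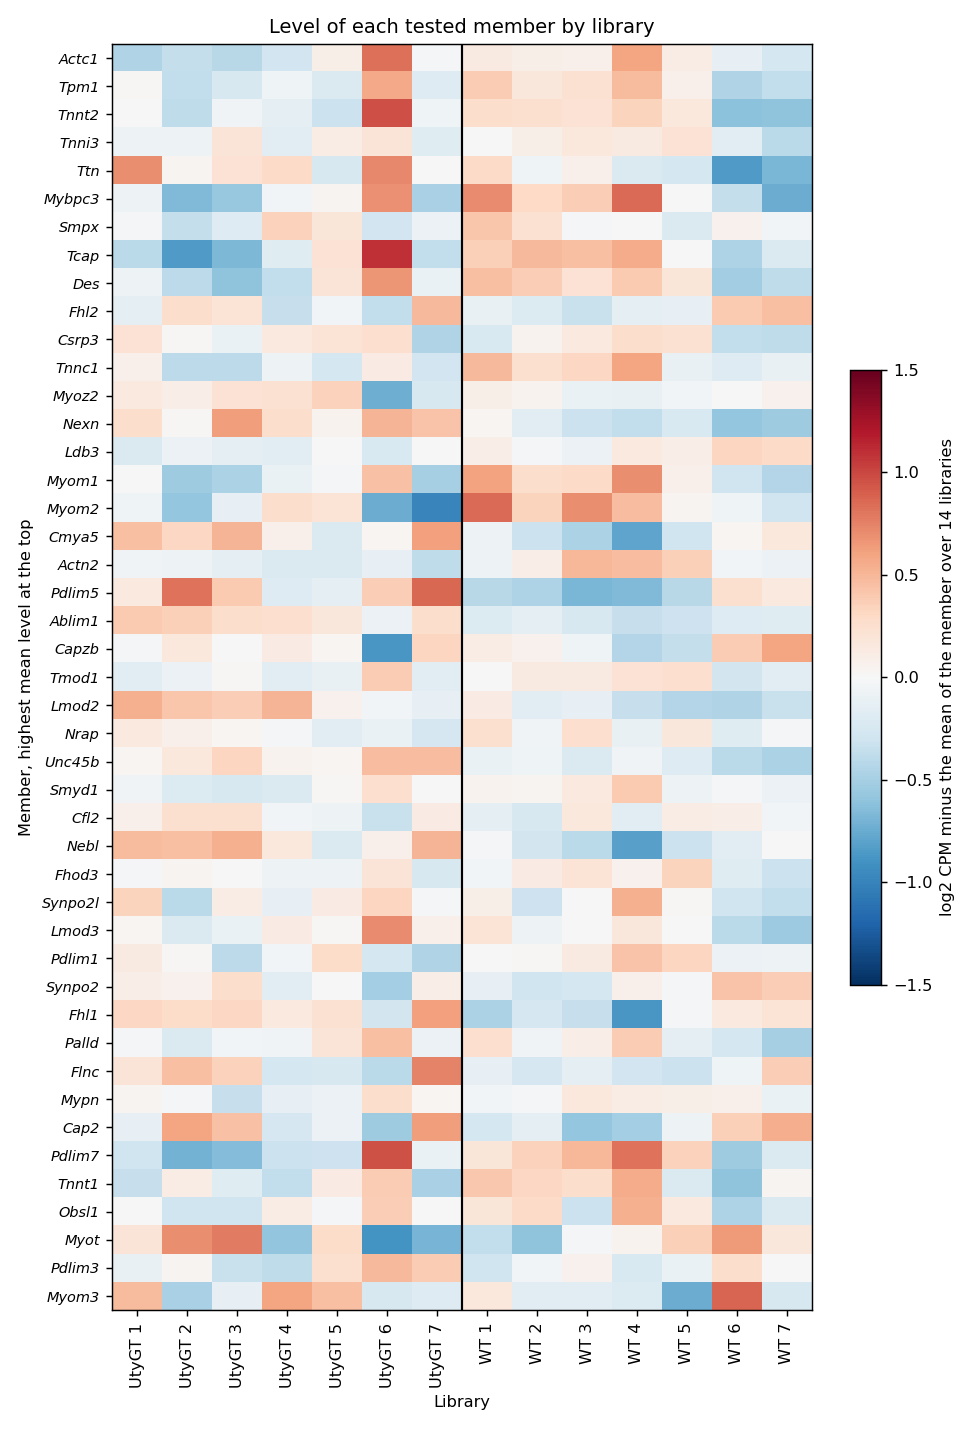
Each cell is the log2 CPM of 1 tested gene in 1 library minus the mean of that gene over all 14 libraries, with UtyGT libraries left of WT libraries and genes ordered by mean level from the top. UtyGT 6 is high for abundant genes such as Actc1 (24940 CPM), Tnnt2 (17781 CPM) and Tcap (4350.0 CPM) and low for Capzb (198 CPM) and Myoz2 (865 CPM), and WT 6 and WT 7 are low for many genes near the top.

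Base composition moved with genotype in these libraries. The slope of log2 level on GC content per 10 percentage points, relative to the mean library, averaged -0.11 in UtyGT (-0.29 to 0.14) and 0.11 in WT (-0.076 to 0.32), with ranges that overlap. Median GC content was 46.4% for transcripts of the 6 members that rose, 50.8% for all tested members and 49.7% for all tested genes. It was 44.5% for all genes called higher and 55.3% for all genes called lower. With a correction for GC content of whole transcripts 3 of 45 members were called higher, namely Ablim1, Unc45b and Lmod2, and 0 lower, beside 2.67% of all tested genes called higher and 2.14% lower. The 3′ GC correction used the last 500 nt of the longest annotated transcript of each gene. That end need not be the 3′ end that was sequenced. With it, 2 of 45 were called higher, namely Ablim1 and Nebl, and 1 lower, Ldb3. This is close to the shares of all tested genes (3.35% higher and 2.52% lower). All 13 members with an unadjusted p below 0.05 kept their direction under both corrections. Ablim1 was the only member called under both.

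**Figure D4:**
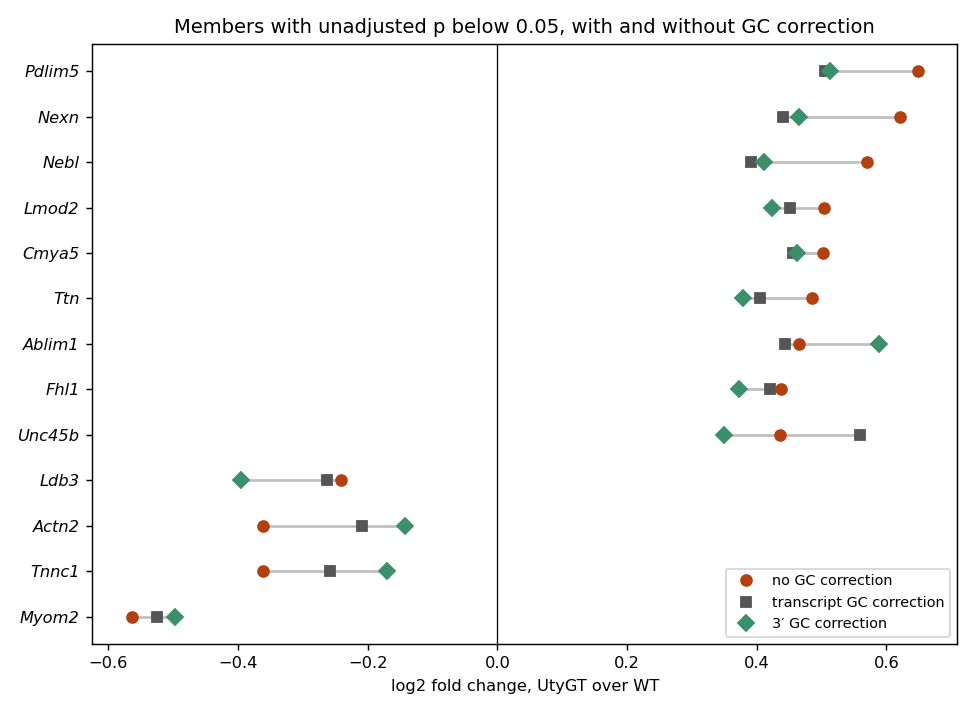
Points give the log2 fold change of UtyGT over WT for the 13 genes with an unadjusted p below 0.05, without a GC correction (circles), with a correction for GC content of the whole transcript (squares) and of its 3′ end (diamonds). Nexn lies at 0.62, 0.44 and 0.47 and Actn2 at -0.36, -0.21 and -0.14 in this order, and no gene crosses 0.

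Marker genes of cell types were examined because in bulk tissue fewer cells of a type and less RNA per cell cannot be told apart. Of 10 cardiomyocyte markers, Ryr2 was called higher and Mb lower. The summed level of the 10 was 49572 to 83340 CPM in UtyGT libraries (median 60135) and 55503 to 112208 CPM in WT libraries (median 84859). In means, Myl3 (21417 CPM in UtyGT, 32650 CPM in WT) and Mb (11051 CPM and 18456 CPM) made up most of this gap. Myh6 had 6283 CPM in UtyGT and 6280 CPM in WT, so the sum does not stand for all 10 markers. Of 6 endothelial markers 2 were called lower (Pecam1 and Tie1), with sums of 423 to 577 CPM in UtyGT libraries and 525 to 737 CPM in WT libraries. Of 5 erythroid markers 2 were called lower (Hba-a1 and Hba-a2), with sums of 1071 to 5117 CPM in UtyGT libraries and 3192 to 6874 CPM in WT libraries. No tested marker of smooth muscle and pericytes, fibroblasts, macrophages, atrial cardiomyocytes or skeletal muscle was called. The 9 skeletal muscle markers summed to 4.64 to 14.6 CPM in UtyGT libraries and 6.39 to 15.4 CPM in WT libraries, and the atrial marker Bmp10 was at 0 in every library. The part of the cardiomyocyte, endothelial and erythroid marker differences in the values of the sarcomere genes was not tested.

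Related genes of the sarcomere that are not among the 46 were counted from 3 further lists. Of 18 tested genes for other sarcomere, Z-disc and titin-binding proteins, 4 rose and 2 fell. These were 22.2% called higher and 11.1% called lower, against 4.70% and 3.34% of all tested genes. The related lists were chosen with earlier results of these data known, so their shares are descriptive. Ankrd1, an ankyrin repeat protein that binds titin and is induced by stretch, had lowest, median and highest levels of 2073, 2478 and 3296 CPM in UtyGT libraries, and 1264, 1481 and 1969 CPM in WT libraries. Every UtyGT library was above every WT library, and the mean was 2650 ± 452 CPM in UtyGT and 1529 ± 260 CPM in WT (log2 fold change 0.79 ± 0.14, edgeR adjusted p = 0.0037). Bag3, a co-chaperone that clears damaged Z-disc proteins, rose to 679.9 ± 137 CPM in UtyGT, against 403 ± 75.4 CPM in WT (log2 fold change 0.75 ± 0.15, adjusted p = 0.0090). Hspb7, a small heat shock protein of cardiac muscle, fell to 309 ± 90.02 CPM in UtyGT, against 531 ± 145 CPM in WT (log2 fold change -0.78 ± 0.19, adjusted p = 0.0186). All 3 were called in every one of 23 alternatives. Itgb1bp2, which encodes the integrin-binding protein melusin, rose to 318 ± 65.9 CPM in UtyGT, against 212 ± 50.2 CPM in WT (log2 fold change 0.59 ± 0.16, adjusted p = 0.0355), and was called in 15 of 23 alternatives.

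Xirp2 and Trim54, the other 2 called genes of that list, are named after their values were seen. Xirp2, a Xin repeat protein that binds actin, had 817 ± 89.996 CPM in UtyGT and 613 ± 91.5 CPM in WT (log2 fold change 0.41 ± 0.12, edgeR adjusted p = 0.0358), and was called in 12 of 23 alternatives. It was not called after the GC correction (adjusted p = 0.321), without a count filter (0.0844), or without any one of UtyGT 1 to UtyGT 4, WT 2, WT 3 and WT 5 to WT 7 (adjusted p = 0.0507 to 0.0787). Trim54, a muscle RING finger ubiquitin ligase, had 267 ± 120.6 CPM in UtyGT and 499.6 ± 169 CPM in WT (log2 fold change -0.90 ± 0.25, edgeR adjusted p = 0.0373) and was called in 9 of 23 alternatives. Trim54 was not called after the GC correction (log2 fold change -0.65, adjusted p = 0.0603) or the 3′ GC correction (-0.48, 0.0569). Its call was also lost without a count filter (0.0788), or without any one of UtyGT 1 to UtyGT 5, UtyGT 7 and WT 1 to WT 5 (adjusted p = 0.0547 to 0.0840). The members of the list that rose thus included titin- and actin-binding proteins and a co-chaperone, and those that fell were a small heat shock protein and a ubiquitin ligase.

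**Figure D5:**
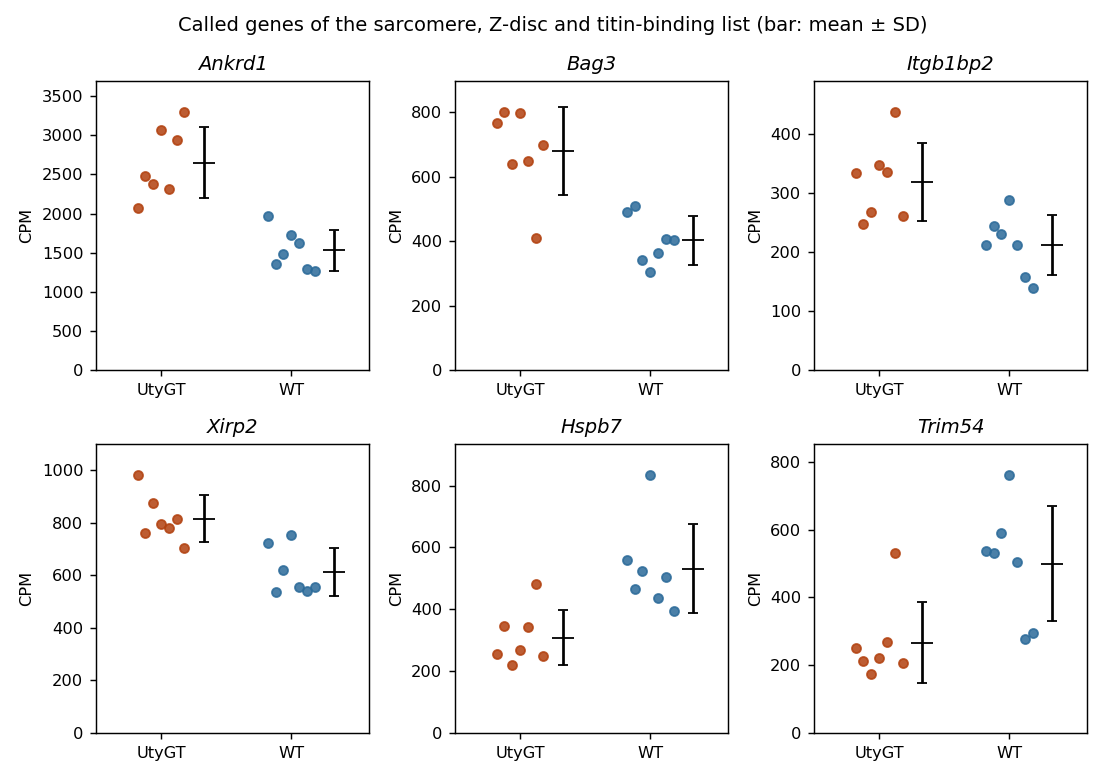
Each point is the level in CPM of 1 library for the 6 called genes of the list of other sarcomere, Z-disc and titin-binding proteins, with the 7 UtyGT libraries left of the 7 WT libraries and a bar for mean ± SD. For Ankrd1 all UtyGT points, 2073 CPM or more, lie above every WT point, 1969 CPM or less, and the genotypes overlap for the other 5 genes.

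Of 14 tested isoforms of sarcomeric genes, 0 fell (against 3.34% of all tested genes) and 1 rose (7.14%, against 4.70%). This was Lmod1, the smooth muscle leiomodin, with 12.3 ± 2.70 CPM in UtyGT and 6.51 ± 1.70 CPM in WT (log2 fold change 0.91 ± 0.19, edgeR adjusted p = 0.0090). Of 27 tested actin and LIM genes outside the Z-disc lists, 2 fell (7.41%, against 3.34% of all tested genes). Synpo, synaptopodin, had 57.5 ± 13.2 CPM in UtyGT and 96.5 ± 35.0 CPM in WT (log2 fold change -0.75 ± 0.19, adjusted p = 0.0281), and Csrp1, a LIM protein of smooth muscle, had 40.4 ± 15.4 CPM in UtyGT and 66.4 ± 18.8 CPM in WT (log2 fold change -0.71 ± 0.21, adjusted p = 0.0486). Lmod1 was called in all 23 alternatives, Synpo in 16 and Csrp1 in 9. Where the strand setting of the counts is unsettled, reads of overlapping genes cannot be told apart. Members with a tested gene on the opposite strand within their span include Tnnc1 (Nisch), Tmod1 (Tstd2), Smyd1 (Krcc1) and Myom1 (Myl12a). Nexn (Gm43185, 11.007 CPM in WT) and Tnni3 (Dnaaf3, 16.8 CPM in WT) each overlap a tested gene of their own strand.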

How the data were processed

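Left ventricles of 14 male mice were profiled, 1 QuantSeq 3′ FWD library per mouse, and libraries were assigned to genotypes from the sample labels. Per the methods of the study, the authors used the Bluebee platform to align reads to GRCm38/mm10, and the deposited counts are those of featureCounts 1.6.0 with Ensembl v98; the submitters' processing notes also name DESeq2 1.22.2 and, with no role, CASAVA 1.4, FastQC and STAR. The table holds 5 entries that name no gene, of the kind htseq-count writes, so which counter was used, and with which strand setting, is not known. These entries, 45.9% to 49.1% of the reads of a library, were dropped. Its columns of means, fold changes, test statistics and p-values from the authors' own comparison were not used. Column numbers name libraries only and were not used as a block.

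Genotypes were compared with edgeR 4.0.16 (R 4.3.3): filterByExpr (minimum count 10), TMM, the robust quasi-likelihood F test on genotype, two-sided, and Benjamini-Hochberg adjustment over 11563 genes. Shares of isoform pairs were compared by exact permutation tests. Alternatives were DESeq2 1.42.0, limma 3.58.1 (voom), RLE scaling, totals without the 10 most abundant and the mitochondrially encoded genes, no count filter, a lowess correction for GC content (span 0.3, from GENCODE M21, for 11550 of 11563 genes), 1 surrogate variable from sva 3.50.0, leaving out WT 4 and UtyGT 6 together, and leaving out each library. A 3′ GC correction, on the last 500 nt of transcripts, was added after seeing the data. Both GC corrections took the longest annotated transcript of each gene. On simulated data for 11387 genes of this comparison, the fit recovered 21.4% of genes at a 1.5-fold change, 74.6% at 2-fold and 99.5% at 4-fold, with 3.81% of calls false. These data held no GC trend and no shift shared by the genes of a library, and a small share of genes was changed. The rates need not be those of the real comparison. Between libraries of the same genotype the chi-square per gene was 6.28 to 127.98, so none was deposited again under another name. No molecular identifiers were named in the sources used here, so limits for a count of 0 cover counting error only.

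The members, the lists and the tests were chosen with earlier results of these data known. All 46 members are accounted for: called members with values by library, the others by mean and adjusted p, those below 5 CPM in words, and up to 4 called genes with the smallest adjusted p in each related list. One listed related gene, Cavin4, was not matched by symbol, and 1 result of the list of actin and LIM genes is left out here. Promoters came from RefSeq on GRCm38.p6.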

Additional observations from a re-analysis of the deposited data

Results flagged for a closer look

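In 19 of 116 groups of 7 libraries examined, 1 library lay far from the other 6, by the gap to its nearest neighbor relative to the range. For independent groups of normally distributed values, chance gives about 1 such group in 20. The groups here reuse the same libraries for many genes, so they are not independent and that rate need not hold. In 13 of the 19 that library was UtyGT 6. Among the 46 genes it was the highest UtyGT library for Mybpc3 (5658 CPM), Actc1 (24940 CPM), Tpm1 (16702 CPM), Tnnt2 (17781 CPM), Tmod1 (430.4 CPM), Lmod3 (215 CPM), Tcap (4350.0 CPM) and Pdlim7 (71.1 CPM), and the lowest for Capzb (198 CPM). Among related genes it was the highest for Trim54 (532 CPM), Csrp1 (73.6 CPM) and Synpo (84.8 CPM) and the lowest for Bag3 (409 CPM). WT 4 was the highest WT library for Actc1 (21264 CPM), Hspb7 (835 CPM), Synpo (172 CPM) and the Acta1 share of Acta1 and Actc1 (8.74%). WT 6 was the highest WT library for Myom3 (6.13 CPM) and WT 7 for Flnc (115 CPM).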

How the results depend on the processing

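The 6 called members kept their direction in all 23 alternatives, and Ablim1 its call. Over the 45 tested members and 10 related genes, 1088 of 1265 fold changes kept their side of the threshold and direction, 92 lost and 24 gained a call, and 61 turned sign, all of these in 16 members that were not called. With the GC correction 3 members were called higher, and 309 genes higher and 247 lower of all tested; log2 fold changes that turned sign were Obsl1 0.26, Tnni3 0.16, Cfl2 -0.13, Fhod3 0.031, Tcap 0.022, Csrp3 -0.010, Myoz2 -0.13, Myot -0.12, Mypn 0.022, Pdlim3 -0.028 and Nrap 0.0046, and the difference in Acta1 share was 0.39 percentage points. With the 3′ GC correction 2 members were called higher and 1 lower (387 and 291 of all tested genes), and Obsl1 turned to 0.32, Tnni3 to 0.24, Cfl2 to -0.13, Tcap to 0.082, Myoz2 to -0.11, Myot to -0.16, Palld to -0.088, Fhl2 to -0.068 and Nrap to 0.18. With surrogate variables 10 members were called higher and 3 lower (1255 and 1245 of all tested genes), and Obsl1 turned to 0.023, Tnni3 to 0.035, Myoz2 to -0.0024, Myot to -0.14 and Fhl2 to -0.059. DESeq2 called 2 members lower and 658 genes lower of all tested, with Myot at -6.2e-05, and limma voom gave Myot -0.071. Without a count filter 337 genes were called higher. Without WT 4 and UtyGT 6 together 1 member and 834 genes were called lower, with Tnnt2 at -0.14, Synpo2 at 0.018 and a difference in Acta1 share of 0.44 percentage points. Leaving out single libraries gave 2 to 8 members called higher and 0 to 4 lower, and 276 to 919 genes called higher and 146 to 1329 lower of all tested; the highest counts were those without UtyGT 6, fewest members were called higher without UtyGT 3, WT 3 or WT 5, and fewest genes without WT 4 (higher) and UtyGT 7 (lower). In the same fits, log2 fold changes ranged from -0.15 to 0.021 for Obsl1, -0.22 to 0.087 for Tnnt2, -0.067 to 0.027 for Tnni3, -0.17 to 0.025 for Capzb, -0.0041 to 0.13 for Myoz2, -0.14 to 0.13 for Myot, -0.046 to 0.11 for Palld, -0.11 to 0.017 for Synpo2 and -0.070 to 0.11 for Fhl2, and differences in share from -2.1e-05 to 0.0018 percentage points for Tnni1 and -0.33 to 0.65 for Acta1. The cause of these changes was not tested. Fits without a library also hold fewer samples.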
